A study of Rattus norvegicus with 14 samples.

Results

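The genes described here are 7 immune genes in RNA-seq libraries of the rat supraoptic nucleus (SON), among 32623 genes in the deposited table. They were chosen by Ensembl gene ID from a fixed list and comprise 3 genes of resident microglia, 1 gene of all leukocytes and 3 genes of antigen presentation by major histocompatibility complex (MHC) class II. The microglia genes are Aif1 (ENSRNOG00000000853), Itgam (ENSRNOG00000019728) and Cx3cr1 (ENSRNOG00000018509), and the leukocyte gene is Ptprc (ENSRNOG00000000655). The class II genes are Cd74 (ENSRNOG00000018735), RT1-Da (ENSRNOG00000032844) and RT1-Ba (ENSRNOG00000000451). The symbols come from that list, since the deposited table and the reference table used here do not pair Ensembl IDs with symbols, so the pairing was not checked. All 7 IDs were in the table and all 7 passed the filter on low values, as did 15178 genes in all.

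The SON lies in the hypothalamus, and its magnocellular neurons secrete vasopressin and oxytocin. All tissue came from male Sprague Dawley rats of 250 to 300 g with free access to water, and each nucleus was taken with a 1 mm punch from 100 µm frozen sections after stereotaxic delivery of an adeno-associated virus. The virus carried a control microRNA (miCtl, 7 libraries) or a microRNA that targets Rasd1, a gene for a Ras-like G protein (miRasd1, 7 libraries). Both groups thus received a virus, and no uninjected nucleus was analysed here. The titles number the libraries 1, 2, 3, 4, 8, 11 and 12 in both groups, and libraries of 1 number are called a pair below. Whether each library is a rat of its own is not stated in the labels, so p-values measure only the spread between these punches, which may be technical. Because no table paired IDs with symbols, the knockdown of Rasd1, the neuronal markers of the SON (Avp and Oxt) and further lists of microglia, macrophage, lymphocyte and class II pathway genes were not tested. Reads recovered from the deposited values totalled 19968058 to 28345441 per library, highest in miRasd1 11. These are reads counted over genes and not all reads sequenced.

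Microglia are the resident macrophages of the brain, and they express surface receptors through which they sense neurons and debris. In the healthy brain few of them carry MHC class II, which is more usual on perivascular and meningeal macrophages, dendritic cells and B cells, and which microglia can take up when activated. Class II molecules are pairs of an alpha and a beta chain. They are assembled with the invariant chain, which guides them to the compartment where peptides are loaded, and their genes are switched on together by the coactivator CIITA, acting through factors bound at the X and Y boxes of their promoters.

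The promoters of the class II genes are shown because these 3 genes covaried across libraries, with values given further on. The sequences are RefSeq's for the GRCr8 assembly, matched by symbol, and each runs from 250 bases before to 50 bases after the start of the gene. Capitals mark the Y box CTGATTGG, its CCAAT core (ATTGG, read on either strand) and the core GCAAC of the X box. These motifs were chosen after the sequences were seen.
Cd74 promoter, chr18:56526956-56527255, + strand: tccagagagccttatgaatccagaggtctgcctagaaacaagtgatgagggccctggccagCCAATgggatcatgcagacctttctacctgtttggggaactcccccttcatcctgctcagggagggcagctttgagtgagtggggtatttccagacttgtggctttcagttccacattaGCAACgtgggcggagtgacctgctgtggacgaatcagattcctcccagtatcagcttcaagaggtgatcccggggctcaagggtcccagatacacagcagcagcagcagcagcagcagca
RT1-Da promoter, chr20:4515165-4515464, + strand: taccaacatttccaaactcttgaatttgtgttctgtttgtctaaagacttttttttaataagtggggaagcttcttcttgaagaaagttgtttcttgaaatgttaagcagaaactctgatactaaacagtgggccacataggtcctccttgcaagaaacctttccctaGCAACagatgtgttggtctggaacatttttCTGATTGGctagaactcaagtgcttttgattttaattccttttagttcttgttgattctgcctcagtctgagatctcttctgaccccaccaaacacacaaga
RT1-Ba promoter, chr20:4576807-4577106, + strand: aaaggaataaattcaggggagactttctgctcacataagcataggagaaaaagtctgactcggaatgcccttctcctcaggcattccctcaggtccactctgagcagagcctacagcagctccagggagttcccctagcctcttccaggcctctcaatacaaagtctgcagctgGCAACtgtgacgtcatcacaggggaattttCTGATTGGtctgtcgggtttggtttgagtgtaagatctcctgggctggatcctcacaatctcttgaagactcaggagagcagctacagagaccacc
In RT1-Da the X box core began 82 bases before the start and the Y box 52 bases before it. In RT1-Ba these distances were 76 and 46 bases. In both genes, GCAAC and ATTGG lay on the same strand at 33 bases from first letter to first letter. Such an order within 40 bases, on either strand, occurred in 1.36% of the 33469 promoters in the table. The full CTGATTGG occurred in 3.50% of them, GCAAC alone in 35.1% and ATTGG alone in 37.5%, the shorter ATTGG being part of the longer motif. The Cd74 window held GCAAC 70 bases before the start and a CCAAT core on the opposite strand 189 bases before it. A match of letters is a description and not a measured site. The same letters were searched in the other members. GCAAC was present in the Itgam window 15 bases before the start and ATTGG in the Cx3cr1 window 67 bases before it, and neither window nor that of Ptprc held the full CTGATTGG. A further motif was searched in all 6 windows. The letters AGGAAG are the core bound by ETS factors such as the myeloid factor PU.1. They were present in the windows of Itgam, Cx3cr1 and Ptprc, in none of the class II genes and in 34.5% of all promoters. The only match in Cx3cr1 lay after the start of the gene. No difference in this motif between the genes was tested. Aif1 had no promoter in the table.

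None of the resident microglia genes passed the test between miRasd1 and miCtl. Aif1 encodes Iba1, a calcium-binding protein of the cytoskeleton and the standard stain for microglia. Its deposited value, in normalised reads (reads divided by 1 size factor per library), ran from 403 over a median of 487 to 628 in miCtl. In miRasd1, Aif1 ran from 404 over a median of 458 to 542, all within the range of miCtl. The group means of Aif1 were 485 ± 76.7 (miCtl) and 471 ± 51.2 (miRasd1) normalised reads (SD, n = 7 each). Its log2 fold change, on the log2(value + 1) scale used throughout, was −0.033 with a 95% interval of −0.23 to 0.16 (limma adjusted p = 0.960).

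Itgam encodes CD11b, the integrin alpha chain of complement receptor 3. It ran from 568 over a median of 631 to 792 normalised reads in miCtl and from 525 over 642 to 897 in miRasd1. The lowest library of Itgam was number 12 in both groups, and the highest were miCtl 1 and miRasd1 2. Its log2 fold change was 0.0093 (95% interval −0.21 to 0.23, limma adjusted p = 0.994).

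Cx3cr1 encodes the receptor for fractalkine, a chemokine that neurons display. It was the steadiest of the 7, at 453 to 592 normalised reads in miCtl (median 483) and 456 to 561 in miRasd1 (median 489). Library 8 was the lowest for Cx3cr1 in both groups. Its log2 fold change was −0.013 (95% interval −0.15 to 0.13, limma adjusted p = 0.984). This interval spans 0.901-fold to 1.09-fold in the fit without the block.

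Ptprc encodes CD45, a phosphatase on the surface of all nucleated blood cells and, at a lower level, of microglia. It ran from 256 over a median of 329 to 444 normalised reads in miCtl and from 310 over 329 to 393 in miRasd1. Library 11 was the highest for Ptprc in both groups. The log2 fold change of Ptprc was −0.024 (95% interval −0.24 to 0.19, limma adjusted p = 0.980).

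None of the class II genes passed the test either, and their libraries lay further apart. Cd74 encodes the invariant chain. It ran from 1288 over a median of 1444 to 2808 normalised reads in miCtl, with miCtl 1 the highest and miCtl 11 the lowest. In miRasd1 it ran from 1327 over a median of 1833 to 2019. The means of Cd74 were 1701 ± 541 and 1721 ± 299 normalised reads (SD, n = 7 each), and the log2 fold change was 0.049 (95% interval −0.27 to 0.37, limma adjusted p = 0.966). The median of Cd74 was thus higher in miRasd1 while the means differed little, since miCtl 1 and miCtl 4 (2008 normalised reads) lay above the other 5 control libraries, which held 1288 to 1555. Without miCtl 1 the miCtl mean of Cd74 was 1516 ± 256 normalised reads (SD over the remaining libraries).

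RT1-Da encodes the alpha chain of the rat class II molecule that corresponds to human HLA-DR. It ran from 474 over a median of 572 to 1110 normalised reads in miCtl and from 413 over 650 to 716 in miRasd1. The log2 fold change of RT1-Da was −0.056 (95% interval −0.42 to 0.30, limma adjusted p = 0.966). RT1-Ba encodes the alpha chain of the molecule that corresponds to HLA-DQ. Its highest library in miCtl held 3.39 times its lowest, the largest such ratio of the 7 genes in either group. It ran from 249 over a median of 339 to 844 normalised reads in miCtl and from 303 over 368 to 571 in miRasd1. Its log2 fold change was −0.019 (95% interval −0.49 to 0.45, limma adjusted p = 0.994), which spans 0.713-fold to 1.37-fold in the fit without the block. In all 3 class II genes the same libraries stood at the ends of the control group, miCtl 1 the highest, miCtl 4 the second and miCtl 11 the lowest, and miRasd1 12 was the lowest of the knockdown group. Without miCtl 1 the log2 fold changes of Cd74, RT1-Da and RT1-Ba were 0.18, 0.076 and 0.16 (limma adjusted p = 0.621, 0.907 and 0.826). RT1 genes differ between rat strains and have related copies, and how reads shared among copies were counted is not given in the sources used here, so the absolute levels of RT1-Da and RT1-Ba are uncertain.

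**Figure D1:**
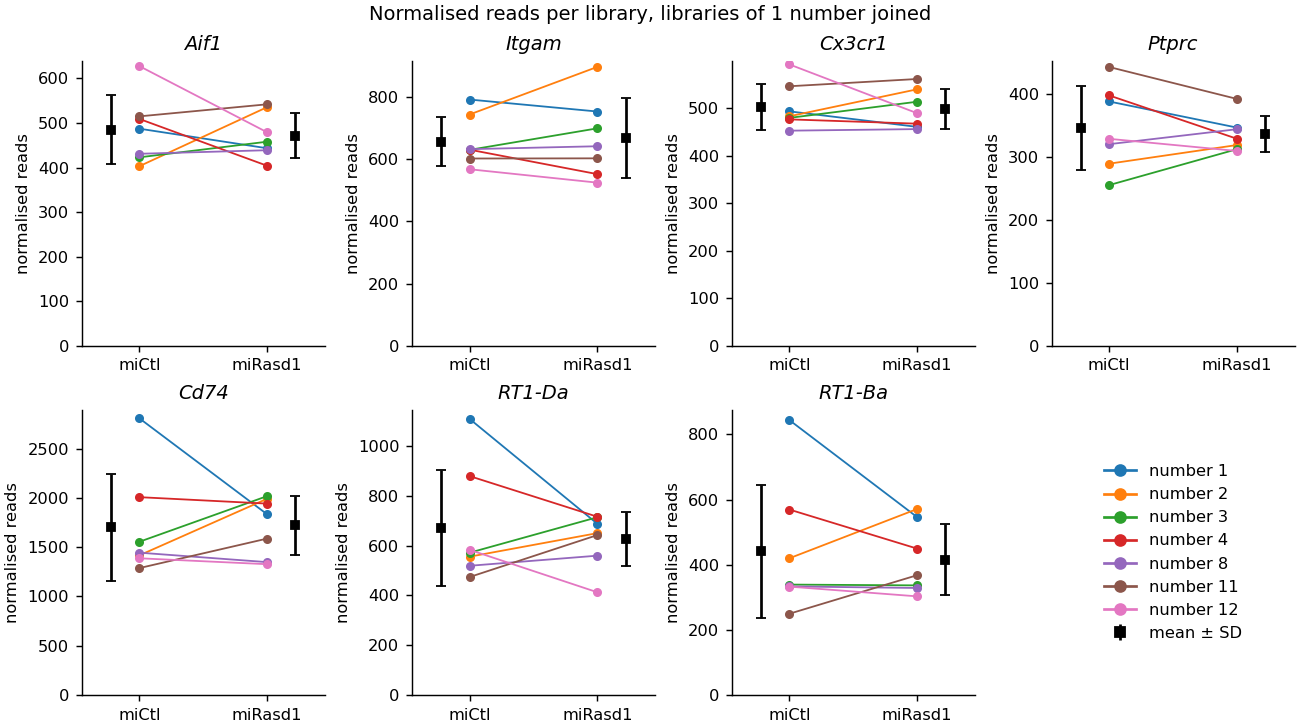
Normalised reads (vertical axis, from 0) of each of the 7 genes in every library, by group on the horizontal axis. Lines join the libraries of 1 number and black squares with bars give mean ± SD (n = 7); the groups overlap in every gene, and miCtl 1 is the highest library for Cd74 (2808), RT1-Da (1110) and RT1-Ba (844).

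In unblocked limma, 0 of the 7 genes passed a Benjamini-Hochberg adjusted p of 0.05 over all tested genes, against 0.145% of the 15178 (22 genes). At an unadjusted p under 0.05 the count was again 0 of 7, against 9.88% of all genes. Libraries of 1 number deviated together over all genes, so a fit that takes the number as a block was run as well. It also called 0 of the 7 (0.988% of all genes, 150 in number), and 0 at an unadjusted p under 0.05 (14.9% of all genes). edgeR on reads recovered from the values called 0 of the 7 (0.119% of all genes without and 0.916% with the block). DESeq2 on these reads also called 0 of the 7. Of the genes it gave an adjusted p, it called 1.43% of 13412 without the block and 2.10% of 14883 with it. In the authors' deposited table the adjusted p of the 7 genes was 0.963 to 0.997 and the log2 fold changes lay between −0.098 and 0.022. There, 172 of the 15296 genes with an adjusted p lay under 0.05. The median log2 fold change was −0.013 for the microglia genes, −0.019 for the class II genes and −0.0012 for all genes tested. When the 7 genes were each put to a two-sided exact permutation test over libraries (n = 7 each), the unadjusted p was 0.748 to 0.943. That test ignores the pairing. An exact sign-flip test over the 7 within-pair differences gave an unadjusted p of 0.734 to 0.891. Groups that do not overlap at all were seen in 0 of the 7 genes and in 0.349% of all genes.

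In limma with the number as a block the interval of all 7 genes was narrower, by differing amounts. With the block, the interval of Itgam went to −0.11 to 0.13 and that of RT1-Ba to −0.27 to 0.24. For Aif1 the interval changed little, from −0.23 to 0.16 without the block to −0.21 to 0.15 with it. The SD left after the fit did not fall for Aif1, at 0.19 without the block and 0.20 with it. Within pairs, Aif1, Itgam, Cx3cr1 and RT1-Da were higher in miRasd1 in 4 of 7 pairs, Ptprc and Cd74 in 3 of 7, and RT1-Ba in 2 of 7. No member had the same direction in all 7 pairs, and the share of all tested genes that did was not calculated. In bulk tissue, fewer cells of a type and less RNA per cell cannot be told apart, which holds for each level given here.

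**Figure D2:**
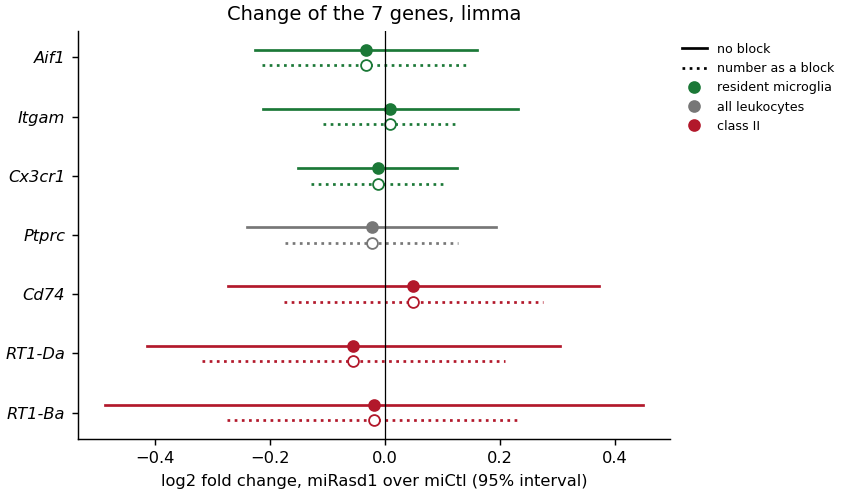
Log2 fold change of miRasd1 over miCtl (horizontal axis) for each gene, with 95% intervals from limma without (solid line, filled point) and with (dotted line, open point) the library number as a block. All intervals include 0, and those of RT1-Da and RT1-Ba are the widest without the block (−0.42 to 0.30 and −0.49 to 0.45).

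Between libraries of a group, each class II gene had a larger SD than each microglia gene in the fit without the block. The SD within groups, in log2 units, was 0.34 for Cd74, 0.37 for RT1-Da and 0.49 for RT1-Ba. It was 0.19 for Aif1, 0.22 for Itgam, 0.13 for Cx3cr1 and 0.21 for Ptprc, and the median over all tested genes was 0.13. Because the spread falls with abundance, each gene was also set among the genes of its own abundance class, 1 of 5 equal classes. RT1-Ba lay at percentile 99.3 of its class, Cd74 at 99.1 and RT1-Da at 98.6, whereas Itgam lay at 92.2, Aif1 at 86.1, Ptprc at 72.5 and Cx3cr1 at 59.7. Counting noise, calculated from the recovered reads, accounts for an SD of 0.036 to 0.073 in the class II genes, whose lowest library held 231 reads (RT1-Ba). For the other 4 genes it was 0.057 to 0.079. The spread of RT1-Ba (0.49) thus stood beside a counting noise of 0.073, and that of Cx3cr1 (0.13) beside 0.065.

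Library miCtl 1 contributed most to the class II spread. Without it the SD fell to 0.25 for Cd74, 0.29 for RT1-Da and 0.38 for RT1-Ba. Whichever of the 14 libraries was left out, the percentile in the abundance class stayed at or above 96.6 for Cd74, 96.8 for RT1-Da and 98.7 for RT1-Ba. With the number as a block the SD was 0.27 for Cd74, 0.31 for RT1-Da and 0.29 for RT1-Ba. The block lowered the SD of Itgam from 0.22 to 0.11, whereas that of Aif1 went from 0.19 to 0.20. In the blocked fit without pair 1 the SD of Cd74 was 0.18 (percentile 95.1), below that of Aif1 at 0.21 (percentile 94.7), while RT1-Da was at 0.26 and RT1-Ba at 0.25. The difference between the spreads of the class II and the microglia genes was described and not tested.

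**Figure D3:**
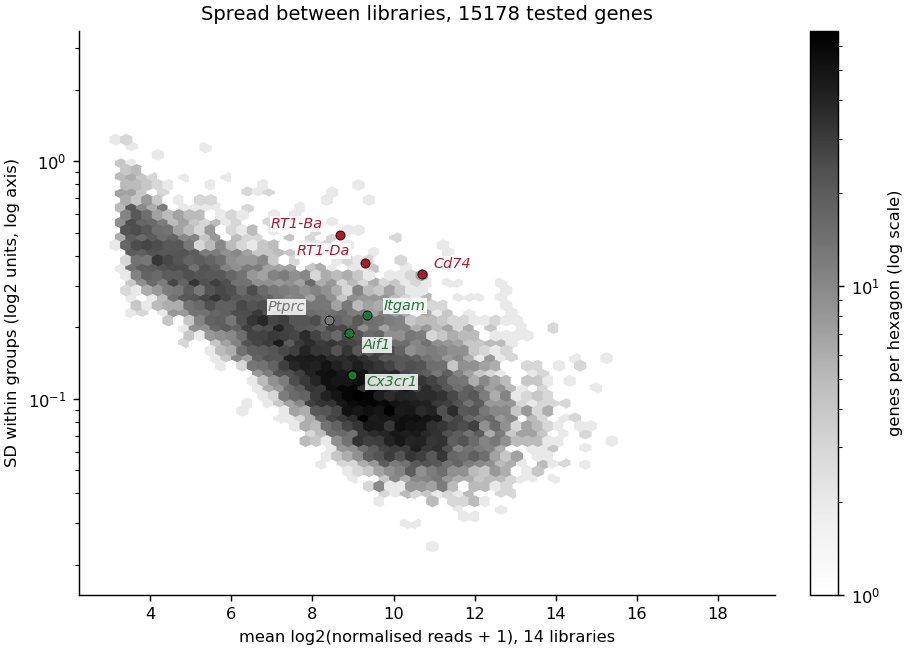
SD within groups in log2 units (vertical log axis) against mean log2(normalised reads + 1) over the 14 libraries (horizontal axis), with all 15178 tested genes as grey hexagons shaded by number of genes. Green marks microglia genes, grey Ptprc and red the class II genes, which sit at the upper edge at 0.34 to 0.49 while Cx3cr1 sits near the middle at 0.13.

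Set against each other, the mean log2 level of the class II genes moved over a wider range than that of the microglia genes. The class II mean was 9.56 ± 0.47 in miCtl and 9.55 ± 0.27 in miRasd1, and the microglia mean 9.08 ± 0.10 and 9.07 ± 0.14 (SD, n = 7 each). The difference of both, class II minus microglia, averaged 0.48 ± 0.45 over the miCtl libraries and 0.49 ± 0.25 over the miRasd1 libraries (SD, n = 7 each). It ran from −0.051 in miCtl 11 to 1.26 in miCtl 1, and from 0.14 in miRasd1 12 to 0.86 in miRasd1 4. Within pairs, miRasd1 minus miCtl, this difference was 0.0039 ± 0.28 (SD, n = 7 pairs), with the lowest value of −0.54 in pair 1 and the highest of 0.39 in pair 11. The gap in range is in part built into the scores, since averaging genes that do not vary together lowers the SD. Over the 14 libraries Itgam correlated at −0.059 with Aif1 and −0.052 with Cx3cr1, against 0.85 to 0.94 among the class II genes. Both means are scores over chosen genes, and they and their difference carry no p.

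**Figure D4:**
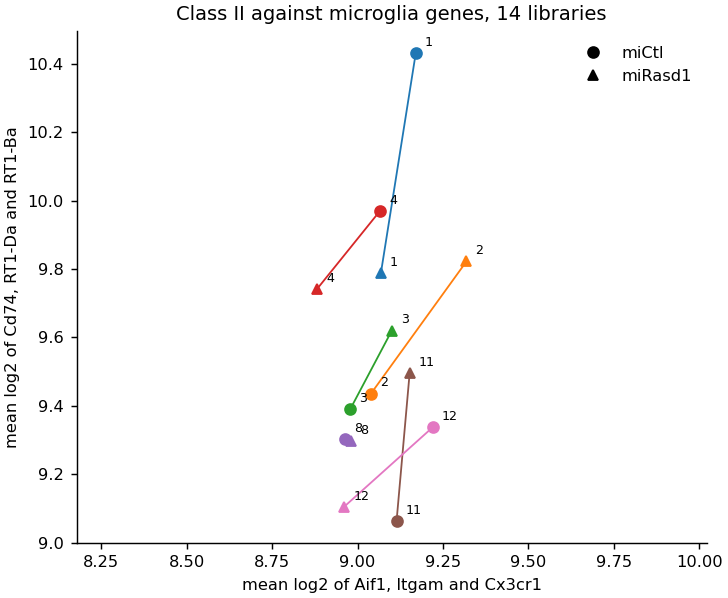
Mean log2(normalised reads + 1) of Cd74, RT1-Da and RT1-Ba (vertical axis) against that of Aif1, Itgam and Cx3cr1 (horizontal axis, same scale per unit) in the 14 libraries. Circles are miCtl and triangles miRasd1, labelled and joined by number. The class II mean spans 9.06 to 10.4 and the microglia mean 8.88 to 9.32. Averaging narrows the microglia span more, since Itgam did not correlate with Aif1 or Cx3cr1 over the 14 libraries.

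The class II genes varied together across libraries, though not in every detail. In miRasd1 the highest library was number 3 for Cd74, 4 for RT1-Da and 2 for RT1-Ba. Over the 14 libraries, each as a deviation from its group mean, Pearson's r was 0.94 for Cd74 with RT1-Da, 0.87 for Cd74 with RT1-Ba and 0.85 for RT1-Da with RT1-Ba. Without the 2 libraries farthest from the median of the first-named gene these were 0.87, 0.71 and 0.75. Since libraries of 1 number deviate together, these 14 points are not independent and no p is given. When all 15177 other tested genes were ranked by their correlation with Cd74, RT1-Da came 2nd and RT1-Ba 6th. Ranked by correlation with RT1-Da, Cd74 came 1st and RT1-Ba 5th. The gene most like Cd74 was ENSRNOG00000033215, which has no symbol here (r = 0.97 over 14 libraries). Without miCtl 1, ENSRNOG00000033215 and RT1-Da remained the first and the second for Cd74 (r = 0.93 and 0.89), and RT1-Ba came 34th (r = 0.75). For RT1-Da, Cd74 then came 2nd and RT1-Ba 46th (r = 0.74). For RT1-Ba, Cd74 and RT1-Da came 7th and 8th over all libraries, and 50th and 62nd without miCtl 1.

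Over the 14 libraries, Aif1 and Cx3cr1 varied together and Itgam did not follow them. Aif1 and Cx3cr1 correlated at 0.85 over the 14 libraries, and Cx3cr1 was 5th among the 15177 genes in likeness to Aif1. Itgam correlated with neither of them (−0.059 with Aif1, −0.052 with Cx3cr1). These values were 0.28 and −0.32 without the 2 libraries farthest from the median of the first gene (Aif1 and Itgam). Over within-pair differences, described further on, Itgam correlated positively with both. Its correlations with the class II genes were 0.55 for Cd74, 0.47 for RT1-Da and 0.64 for RT1-Ba. Leaving out the 2 libraries farthest from the median of Itgam took these to 0.29, 0.32 and 0.39. The genes most like Cx3cr1 were ENSRNOG00000013663 and ENSRNOG00000008465 (r = 0.89 each over 14 libraries), neither with a symbol here, and Aif1 came 9th. Between Aif1 or Cx3cr1 and the class II genes r was −0.20 to 0.052. For Ptprc the closest member was Aif1 (r = 0.45, position 1059 among the 15177 genes). The median r of all tested genes with each of the 7 members lay near 0, between −0.0023 and 0.017.

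To separate differences between numbers from differences within them, the correlations were taken over the 7 pair means and over the 7 within-pair differences, 21 relations each. With exact permutation tests and Benjamini-Hochberg adjustment over all 42, Cd74 with RT1-Da passed over pair means (r = 0.98, exact permutation p = 0.000397, the lowest possible with 7 pairs, adjusted 0.0167; rho = 1.00, adjusted 0.0167). It was 0.95 without the 2 farthest pairs. Aif1 with Itgam passed by r over within-pair differences (r = 0.95, exact permutation p = 0.0020, adjusted 0.0417), though not by rank (rho = 0.93, adjusted 0.0708), and r was 0.94 without the 2 farthest pairs. The other 40 relations did not pass by r.

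Over within-pair differences all 21 relations were positive, from 0.32 (Ptprc with RT1-Ba) to 0.95. Ptprc with Cd74 fell from 0.52 to −0.037 without the 2 farthest pairs, and the other 20 stayed positive. The 3 relations among Aif1, Itgam and Cx3cr1 lay at 0.76 to 0.95. Over pair means 12 of 21 were positive, and Aif1 and Cx3cr1 had values of −0.52 to −0.36 with the class II genes, against 0.56 to 0.79 over within-pair differences. For Aif1 the negative sign rests on 2 pairs, since without the 2 farthest its pair means gave 0.68 with Cd74, 0.60 with RT1-Da and 0.91 with RT1-Ba. For Cx3cr1 these values were −0.94, −0.97 and −0.72. The lowest adjusted p among these 6 relations was 0.373 over means and 0.133 over differences (exact permutation tests), and the change of sign itself was not tested. Over within-pair differences the median r of all tested genes with a member was −0.018 to 0.028. Aif1 and Itgam correlated at −0.47 over pair means (exact permutation p = 0.290, adjusted 0.384), which turned to 0.69 without the 2 farthest pairs, so a contrast with their 0.95 over within-pair differences also rests on those pairs.

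**Figure D5:**
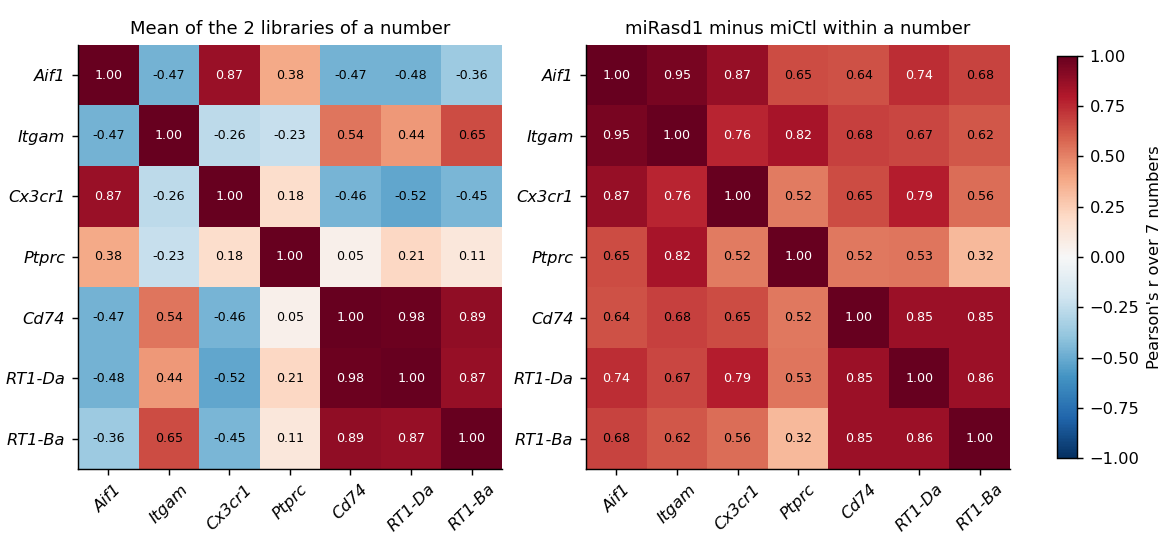
Pearson's r between the 7 genes over 7 library numbers, from the mean of both libraries of a number (left) and from the miRasd1 minus miCtl difference within a number (right), with red for positive and blue for negative values. The class II block is 0.87 to 0.98 on the left and 0.85 to 0.86 on the right. Without the 2 farthest pairs it is 0.46 to 0.95 and 0.62 to 0.82, lowest for RT1-Da with RT1-Ba on the left. Aif1 and Cx3cr1 against class II are −0.52 to −0.36 on the left (for Aif1, 0.60 to 0.91 without the 2 farthest pairs) and 0.56 to 0.79 on the right.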

How the data were processed

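The table that the authors deposited holds a signal value per gene and library, a read count divided by 1 size factor per library (normalised read count), with the authors' log2 fold change, standard error, Wald score, p-value and adjusted p-value. The tools named in the submitters' processing notes, without roles, are STAR, featureCounts, DESeq2 and FastQC. Tool versions, the build and the strand setting were not given in the sources used here. Division by each library's smallest step returned whole reads (within 0.001) for 100% of values above 0.

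limma 3.58.1 (trend) was fitted to log2(value + 1). Genes entered with at least 10 normalised reads in at least 7 libraries (15178 genes). Benjamini-Hochberg adjusted p-values were read at 0.05, and the fits were tested on simulated counts. edgeR 4.0.16 and DESeq2 1.42.0 ran on recovered reads. Same-number libraries correlated at 0.20 to 0.40 over genes and others at −0.23 to 0.14, so the number, taken from the titles, was used as a block beside the unblocked fit. No 2 libraries agreed within sampling noise (chi-square per degree of freedom at least 4.98). All 7 members were named; likeness used Pearson's r of deviations from group means, with the 2 closest genes named for Cd74 and Cx3cr1. The members, lists and tests were chosen with earlier results of these data known.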

Additional observations from a re-analysis of the deposited data

How the results depend on the processing

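Of the 7 genes, 0 passed the threshold in any of 31 alternative fits (block, edgeR and DESeq2 with and without it, pseudocount 10, no filter with and without the block, total read and TMM scaling, each library or, with the block, each pair left out), and the lowest unadjusted p was 0.0640 (Cd74 without pair 1, with the replicate block; adjusted p = 0.400). In the 10 fits on all 14 libraries each gene kept the sign of its log2 fold change. The limma fits with the block or without the filter could not turn it, since neither alters the log2 fold change. Leaving out a library or a pair turned the sign of every gene at least once. Over these left-out fits the log2 fold change ran from −0.11 to 0.031 for Aif1, −0.065 to 0.063 for Itgam, −0.042 to 0.030 for Cx3cr1, −0.093 to 0.039 for Ptprc, −0.025 to 0.18 for Cd74, −0.14 to 0.076 for RT1-Da and −0.14 to 0.16 for RT1-Ba. The group difference of class II minus microglia was 0.0039. Taken as the mean of within-pair differences it cannot differ from this, since every number has a library in both groups. Pseudocount 10 and the scalings left the group difference at 0.0034 to 0.0039, and leaving out a library gave −0.085 to 0.13. The replicate block changed no call. Alternatives for the spread and for likeness to a gene were added after the data were seen. With 231 to 2738 recovered reads per gene and library, counting noise was below the SD within groups for all 7 genes without the block. For Cx3cr1 the blocked fit without pair 12 left an SD of 0.065, beside a counting noise of 0.065.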

Other observations

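The agreement of both libraries of a number was taken gene by gene, and no difference between genes was tested. Between the miCtl and the miRasd1 library of a number, Pearson's r of Itgam was 0.83 (exact permutation p = 0.0302, adjusted over 7 genes 0.131; rho = 0.79, p = 0.0480, adjusted 0.324), and r was 0.66 without the 2 farthest pairs. For Ptprc r was 0.76 (exact permutation p = 0.0373, adjusted 0.131; rho = 0.64, p = 0.139, adjusted 0.324), and 0.43 without the 2 farthest pairs. RT1-Ba had r = 0.71 (exact permutation p = 0.0897, adjusted 0.209; rho = 0.68, p = 0.110, adjusted 0.324), and 0.54 without the 2 farthest pairs. For the others r was lower, with Cd74 at 0.41, Cx3cr1 0.36, RT1-Da 0.35 and Aif1 −0.070. Without the 2 farthest pairs r was 0.42 for Cd74, 0.33 for Cx3cr1, −0.32 for RT1-Da and 0.20 for Aif1. None of the 7 passed once adjusted.

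Single libraries were also checked by their gap to the nearest library as a share of the group's range, in 30 sets of 7 values (each gene and score in both groups and in the within-pair differences). Genes in the groups were taken in normalised reads, scores and within-pair differences in log2 units, so shares from different scales stand side by side. In 0 of the 30 sets did a value pass the limit for 7 samples at 95% confidence. The nearest were Ptprc in miRasd1 11 at 0.551, the class II minus microglia difference of pair 1 at 0.531 and Cd74 in miCtl 1 at 0.526.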
